A study of Homo sapiens with 6 samples.

Results

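The human mitochondrial genome carries 37 genes, and all 37 genes placed on chrM in the deposited count tables were taken, by that placement alone, out of 62696 genes. They comprise 13 protein genes, 2 rRNA genes and 22 tRNA genes. The 6 libraries came from DMS53, an established cell line of NE SCLC. For 3 of them (control) the cells carried an empty lentiviral vector, and in 3 (OC2-OE) the same vector with the coding sequence of OC2, the transcription factor encoded by ONECUT2. The vector backbone, pLenti-C-mGFP-P2A-Puro, gives mGFP and puromycin resistance in both groups, so OC2 was made as an mGFP-tagged protein, and the cells of both groups were puromycin-selected pools from 1 line. Each library of a group came from an independent RNA-Seq experiment. Libraries were stranded and poly(A)-selected.

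Mitochondrial DNA is a compact circle that is read from both strands. The nuclear-encoded polymerase POLRMT, with TFAM and TFB2M, makes long transcripts that span almost a whole strand. One of these carries both rRNAs, most tRNAs and all protein genes except MT-ND6, and the other carries MT-ND6 and the remaining tRNAs. The tRNAs lie between the longer genes, and cutting at both ends of the tRNAs by RNase P and ELAC2 releases the mRNAs and rRNAs. Most mitochondrial mRNAs then receive a short poly(A) tail, MT-ND6 being the known exception, and LRPPRC with SLIRP protects them. The 13 proteins are core subunits of respiratory complexes I, III and IV and of ATP synthase (complex V), which drive oxidative phosphorylation.

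The genes are so closely packed that several overlap, and the options listed in the files' headers do not include the one that counts read pairs on more than 1 gene. Sequences are given 5′ to 3′ on GRCh38, plus strand, from the GENCODE 29 transcripts. The first is shown because it is shared by both ATP synthase genes, so that reads lying across it belong to no single one of them. It is the 46 bases of chrM:8527-8572, with the start codon of MT-ATP6 and the stop codon of MT-ATP8 in capitals. The next 3 are the most abundant of the tRNA genes whose counts rose, with the anticodon in capitals. They are MT-TL1 (chrM:3230-3304), MT-TI (chrM:4263-4331) and MT-TM (chrM:4402-4469), the tRNAs for leucine (UUR codons), isoleucine and methionine.
MT-ATP8/MT-ATP6: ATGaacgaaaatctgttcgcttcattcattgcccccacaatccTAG
MT-TL1: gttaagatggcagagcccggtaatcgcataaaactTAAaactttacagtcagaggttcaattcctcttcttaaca
MT-TI: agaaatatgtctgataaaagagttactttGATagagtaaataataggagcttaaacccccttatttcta
MT-TM: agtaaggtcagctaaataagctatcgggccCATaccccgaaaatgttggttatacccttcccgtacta

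MT-TL1 joins MT-RNR2 directly on its 5′ side and lies 2 bases from MT-ND1, whereas MT-TI joins the end of MT-ND1 and MT-TM joins the start of MT-ND2. Between MT-TI and MT-TM lie 70 bases with no gene on the plus strand. MT-ND4L and MT-ND4 also overlap, by 7 bases (chrM:10760-10766), and MT-ATP6 and MT-CO3 share the single base at position 9207. As in the paired reading frames of MT-ATP8 and MT-ATP6, MT-ND4L and MT-ND4 are known to sit on 1 mRNA.

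The libraries held between 16533284 and 19099337 counts. ONECUT2 had 394 to 465 counts in the control libraries and 68853 to 74031 in the OC2-OE libraries, as the labels say. Libraries of a group differed by 1.32 to 2.07 times the sampling variance, and libraries of different groups by 94.1 to 104 times. All 7 neuroendocrine markers were detected in both groups, with 2 higher and 4 lower in OC2-OE. The leukocyte markers PTPRC and CD3E had at most 3 counts in a group and the fibroblast marker DCN 3 in each. CD68, also of leukocytes, had 8 counts in control and 11 in OC2-OE, and the fibroblast marker COL3A1 had 6 and 2. COL1A1, also made by fibroblasts, rose from 21.5 ± 1.69 CPM in control to 27.8 ± 1.52 CPM in OC2-OE (SD, n = 3). Its log2 fold change was 0.37 (adjusted p = 7.11e-07 by edgeR). COL1A2, another fibroblast marker, had 6, 10 and 11 counts in control and 23, 18 and 24 in OC2-OE. It did not pass (adjusted p = 0.00214 by edgeR). LYZ, a leukocyte marker, was higher in OC2-OE with 10, 5 and 6 counts against 42, 32 and 48. PDGFRA, a fibroblast marker, was lower with 29, 22 and 32 against 4, 7 and 6, as was CDH5, an endothelium marker, with 17, 14 and 21 against 1, 1 and 1. VWF, also of endothelium, had 0, 1 and 0 counts against 6, 5 and 6, and PECAM1 lay at 2.39 ± 0.573 CPM in control and 2.46 ± 0.515 CPM in OC2-OE (SD, n = 3), with overlapping groups. The part of these genes' source in the results was not tested. CPM are counts relative to the library total after TMM scaling. Across 17307 genes tested with edgeR's quasi-likelihood test, 9776 (56.5%) had an adjusted p under 0.001, of which 4810 (27.8% of those tested) were higher and 4966 (28.7%) lower in OC2-OE. Groups did not overlap for 73.2% of genes. Counts for single genes are therefore read against a comparison in which most genes differed.

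Mitochondrial RNA made up a larger part of the OC2-OE libraries. The share of all counts on chrM was 2.47%, 2.43% and 2.28% in control replicates 1 to 3 and 2.88%, 2.90% and 2.90% in OC2-OE replicates 1 to 3. The groups did not overlap, and control replicate 3 was the lowest of the 6. The means were 2.39% ± 0.0983 (SD, n = 3) and 2.90% ± 0.00974 (SD, n = 3), a difference of 0.501 percentage points or 1.21-fold. By an exact two-sided permutation test, p was 0.1, the smallest that 3 against 3 libraries can give, and 0.14 after Benjamini-Hochberg adjustment over the 7 shares and ratios of this kind. The 95% Wilson interval of each library's share was narrow, for example from 2.28% to 2.29% in control replicate 3 and from 2.88% to 2.89% in OC2-OE replicate 1, and covers counting error only. In bulk RNA, more mitochondrial genomes per cell and more RNA per genome cannot be told apart. Without the rRNA genes, the difference was 0.424 percentage points.

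**Figure D1:**
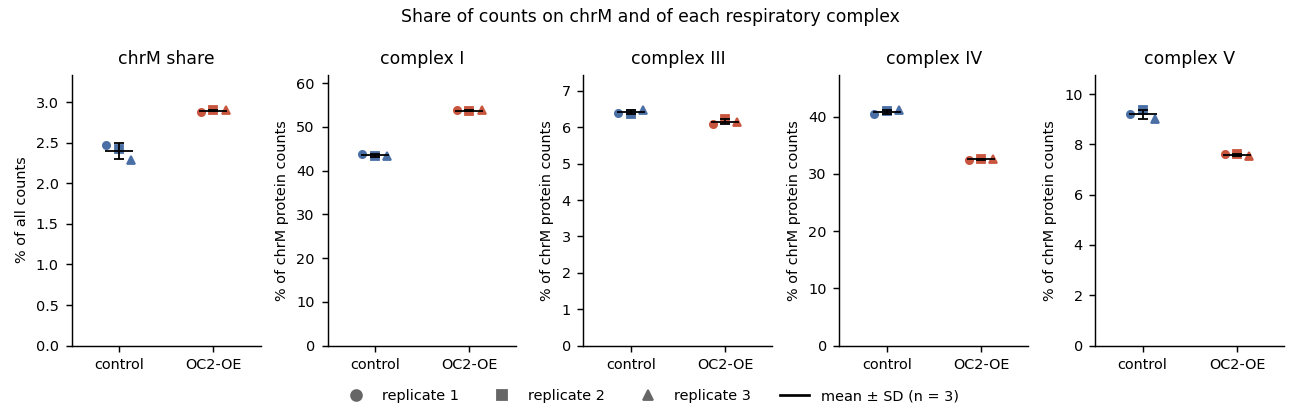
Share of all counts on chrM (first panel, percent) and share of the chrM protein counts held by complexes I, III, IV and V (percent) in each library, with replicates by symbol and the mean and SD in black. The 3 OC2-OE libraries lie above the controls for chrM (2.90% against 2.39%) and complex I (53.7% against 43.5%), and below them for complexes III, IV and V.

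The difference was uneven over the genes. Of the 37 genes, 24 passed the filter on low counts, among them all 13 protein genes, both rRNA genes and 9 of 22 tRNA genes. With an adjusted p under 0.001, 12 of the 24 rose, 2 fell and 10 did not pass, so that 58.3% were called against 56.5% of all genes. MT-TK, a tRNA gene with under 10 counts in each control library, is among the 12, and without it 11 rose. Among the protein genes 7 rose, 2 fell and 4 did not pass, with a median log2 fold change of 0.10, against 0.01 over all 17307 genes. Without control replicate 3 it was 0.06. With library size only it was 0.15, with the median of all genes at 0.06. The 2 that fell, MT-CO3 and MT-ND3, are neighbours on the plus strand, separated by the tRNA gene MT-TG. The 3 largest rises of protein genes were those of MT-ND1, MT-ND5 and MT-ND4.

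**Figure D2:**
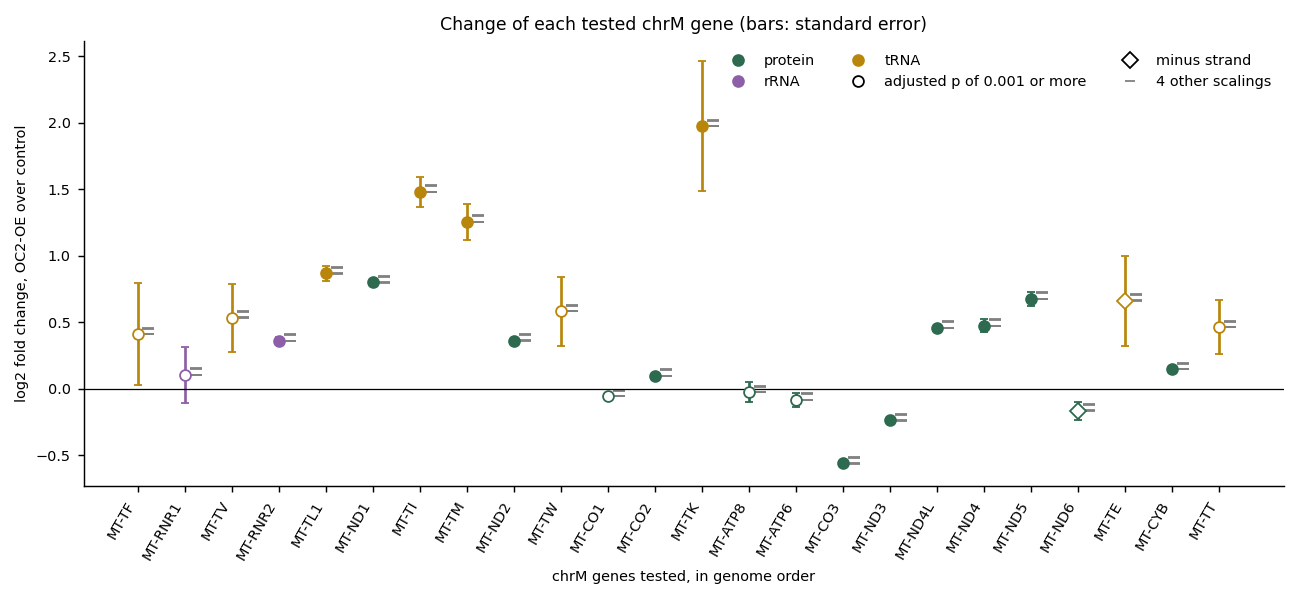
Log2 fold change of OC2-OE over control for the 24 chrM genes tested, in genome order, with the standard error (bars). Filled points passed an adjusted p of 0.001, diamonds lie on the minus strand, and grey dashes give the value under 4 other scalings. The points run from -0.56 at MT-CO3 to 1.97 at MT-TK.

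The complex I genes encode subunits of NADH dehydrogenase, the entry point of electrons from NADH. Of 7, 5 rose, 1 fell and 1 did not pass, and their median log2 fold change was 0.46. This is 85.7% called, against 56.5% of all genes (27.8% higher and 28.7% lower). MT-ND1 (ENSG00000198888.2, chrM:3307-4262) encodes a subunit at the junction of the membrane arm and the quinone site. MT-ND1 was at 1543, 1486 and 1397 CPM in control and at 2569, 2540.1 and 2598 CPM in OC2-OE. Every OC2-OE library was far above every control library. The mean rose from 1476 ± 73.5 CPM to 2569 ± 29.1 CPM (mean ± SD, n = 3), which gave a log2 fold change of 0.80 (SE 0.0235) with an adjusted p of 2.35e-22.

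MT-ND5 and MT-ND4 encode proton-pumping subunits of the membrane arm. MT-ND5 was at 1717, 1643 and 1499 CPM in control and at 2578, 2577 and 2608 CPM in OC2-OE. From 1619.6 ± 111 CPM, the level of MT-ND5 rose to 2588 ± 17.3 CPM (mean ± SD, n = 3), a difference of 0.68 on the log2 scale (SE 0.0552, adjusted p = 2.79e-04). MT-ND4 was at 3964, 3810.1 and 3525 CPM in control and at 5196, 5166 and 5324 CPM in OC2-OE. The groups lay well apart for both genes, and the OC2-OE libraries of MT-ND5 differed from each other by less than the control libraries did. MT-ND4 rose from 3767 ± 223 CPM to 5229 ± 83.6 CPM (mean ± SD, n = 3), and its log2 fold change was 0.47 (SE 0.0484, adjusted p = 5.86e-04). For both, the adjusted p was large for the size of the change, and it rose above 0.001 without control replicate 2, to 0.00278 for MT-ND5 and 0.00549 for MT-ND4, and for MT-ND5 also without OC2-OE replicate 3 (0.00129).

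MT-ND4L, which shares its mRNA with MT-ND4, also rose. MT-ND4L was at 620.3, 618 and 590.0 CPM in control and at 819, 825 and 866 CPM in OC2-OE. The mean rose from 609 ± 16.8 CPM to 836 ± 25.5 CPM (mean ± SD, n = 3), which gave a log2 fold change of 0.46 (SE 0.0215) with an adjusted p of 5.51e-38. MT-ND2, another membrane-arm pump, rose less. MT-ND2 was at 1317, 1258 and 1194 CPM in control and at 1612, 1594 and 1639 CPM in OC2-OE. From 1256 ± 61.3 CPM, the level of MT-ND2 rose to 1615 ± 22.5 CPM (mean ± SD, n = 3), a difference of 0.36 on the log2 scale (SE 0.0225, adjusted p = 1.86e-17). The groups did not overlap for either gene.

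MT-ND3 (chrM:10059-10404), a small subunit beside the quinone channel, went the other way. MT-ND3 was at 706, 673 and 645 CPM in control and at 573, 561 and 584 CPM in OC2-OE. All 3 OC2-OE libraries were below the lowest control library. MT-ND3 fell from 675 ± 30.4 CPM to 573 ± 11.1 CPM (mean ± SD, n = 3), and its log2 fold change was -0.24 (SE 0.0228, adjusted p = 1.59e-15). MT-ND6, the complex I gene on the minus strand (chrM:14149-14673), was by far the least abundant protein gene. MT-ND6 was at 24.4, 26.1 and 28.3 CPM in control and at 24.6, 22.5 and 23.1 CPM in OC2-OE. The highest OC2-OE library lay just above the lowest control library, and the change of -0.16 did not pass (adjusted p = 0.0238).

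**Figure D3:**
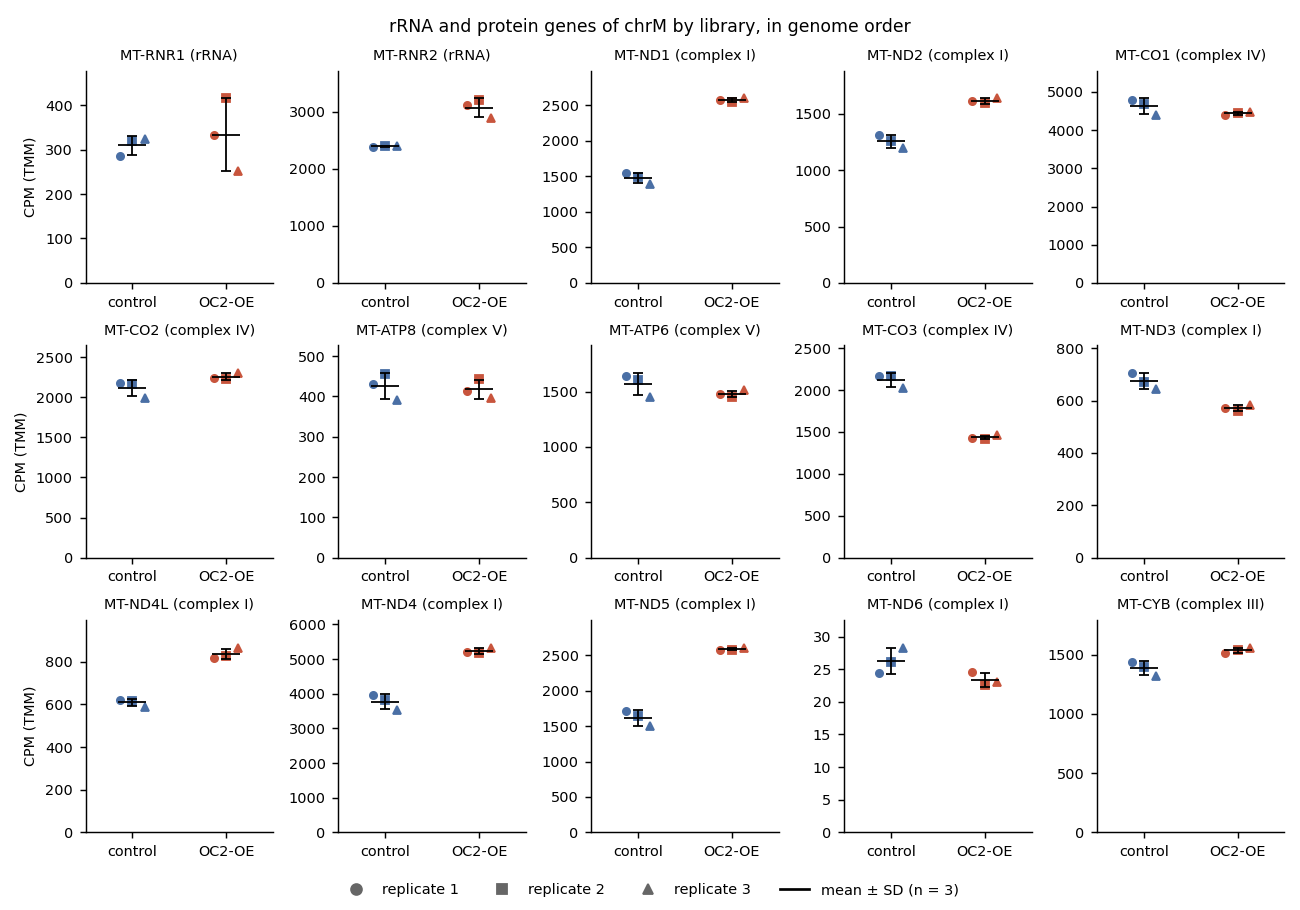
Normalized expression (CPM, TMM-scaled, axis from 0) of the 2 rRNA and 13 protein genes in each library, with replicates by symbol and the mean and SD (n = 3) in black. MT-ND1, MT-ND4, MT-ND4L and MT-ND5 stand clear above the controls in all 3 OC2-OE libraries, MT-CO3 and MT-ND3 stand below them, and MT-ATP8 and MT-CO1 overlap.

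Complex III, the cytochrome bc1 complex, has 1 subunit encoded here. MT-CYB (cytochrome b, chrM:14747-15887) rose slightly. MT-CYB was at 1441, 1399.5 and 1325 CPM in control and at 1514, 1544 and 1555 CPM in OC2-OE. The mean rose from 1389 ± 59.3 CPM to 1538 ± 21.1 CPM (mean ± SD, n = 3), which gave a log2 fold change of 0.15 (SE 0.0202) with an adjusted p of 1.21e-09. The lowest OC2-OE library was above the highest control library by a small margin.

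The 3 complex IV genes encode the catalytic core of cytochrome c oxidase, and each behaved differently. MT-CO3 (ENSG00000198938.2, chrM:9207-9990) fell more than any other tested gene of chrM. MT-CO3 was at 2162, 2171 and 2018 CPM in control and at 1431, 1418 and 1459 CPM in OC2-OE. From 2117 ± 85.4 CPM, the level of MT-CO3 fell to 1436 ± 20.5 CPM (mean ± SD, n = 3), a difference of -0.56 on the log2 scale (SE 0.0198, adjusted p = 7.17e-39). MT-CO2, which binds cytochrome c, had slightly more counts in OC2-OE. MT-CO2 was at 2171, 2164 and 1996 CPM in control and at 2244, 2229 and 2301 CPM in OC2-OE. Its groups did not overlap, with a log2 fold change of 0.10 (SE 0.0232, adjusted p = 5.02e-04). The MT-CO2 call was lost without control replicate 3 (adjusted p = 0.00392) and without OC2-OE replicate 3 (adjusted p = 0.00338), as well as by DESeq2 (0.0310) and with a minimum of 10 counts in each library (0.00142).

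MT-CO1, the subunit with the oxygen-reducing heme-copper centre, had the most counts of any gene of the 37 in control. MT-CO1 was at 4795, 4685 and 4387 CPM in control and at 4407, 4449.7 and 4484 CPM in OC2-OE. The OC2-OE values fell inside the control range, and the log2 fold change of -0.06 had an adjusted p of 0.0225. Without control replicate 3, its lowest library, the change was -0.10 with an adjusted p of 1.84e-07, under the threshold.

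Neither complex V gene passed the test. MT-ATP6, the proton channel of ATP synthase, had 1567 ± 101 CPM in control and 1479 ± 31.4 CPM in OC2-OE (SD, n = 3), and its log2 fold change of -0.08 had an adjusted p of 0.223. Its call too depended on control replicate 3, without which the change was -0.14 (adjusted p = 2.71e-10), and MT-ATP6 was also called when no filter on low counts was applied. MT-ATP8, a small subunit of the stator stalk, had 425 ± 32.5 CPM in control and 418 ± 23.4 CPM in OC2-OE (SD, n = 3), and its log2 fold change of -0.03 had an adjusted p of 0.787. Its sign turned without control replicate 2 or OC2-OE replicate 3, and also with library size only and upper-quartile normalization, which moved the median of all genes from 0.01 to 0.06 and 0.05. Control replicate 3 had the lowest CPM of the control libraries for 12 of the 13 protein genes, and its part in these results was measured only by leaving it out.

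Within mitochondrial mRNA, complex I genes took a larger share and complex IV genes a smaller one in OC2-OE. Complex I genes held 43.9%, 43.3% and 43.4% of the chrM protein counts in control and 53.8%, 53.5% and 53.8% in OC2-OE. Complex IV genes held 40.5%, 41.0% and 41.1% in control and 32.5%, 32.6% and 32.5% in OC2-OE. In control the shares of complexes I and IV were close, and in OC2-OE complex I was well ahead in each library. The complex V share went from 9.20% ± 0.172 to 7.59% ± 0.0490 and the complex III share from 6.41% ± 0.0582 to 6.15% ± 0.0666 (SD, n = 3). All 4 shares differed without overlap, each with an exact permutation p of 0.1 (two-sided), also after adjustment over the 4. These shares add up to the whole, so they are not independent, and long genes weigh more in them. With counts per kilobase, complex I went from 42.1% to 50.8%, complex IV from 35.4% to 29.1% and complex V from 17.6% to 15.2%, while complex III lay at 4.91% and 4.90%.

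Per kilobase of gene, the order of the genes changed as well. In control MT-CO2 led with 3086 ± 145 CPM per kilobase (SD, n = 3), followed by MT-CO1 with 2998 ± 137, MT-ND4 with 2733 ± 161 and MT-CO3 with 2700 ± 109. Neighbours among these 4 overlapped in range, and all lay above MT-ATP6 next with 2302 ± 148. In OC2-OE MT-ND4 led with 3794 ± 60.6 CPM per kilobase, ahead of MT-CO2 with 3301 ± 55.6, MT-CO1 with 2884 ± 24.9 and MT-ND4L with 2816 ± 85.9. The top 3 did not overlap with each other, while MT-CO1 and MT-ND4L did. MT-CO3 was at place 4 of 15 in control and 9 in OC2-OE, and MT-ND1 at 9 and 5. Among all 62696 genes, MT-CO2, MT-CO1, MT-ND4 and MT-CO3 held ranks 1 to 4 in control, and MT-ND4, MT-CO2, MT-CO1, MT-ND4L and MT-ND1 held ranks 1 to 5 in OC2-OE. MT-ND6 was last of the 15 in both groups, with 50.0 ± 3.70 and 44.5 ± 2.05 CPM per kilobase.

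Changes along the genome were examined as the ratio of each rRNA or protein gene to the one before it in chrM numbering, per kilobase, a measure that does not depend on the scaling of libraries and was chosen after values had been seen. Of 14 ratios, 10 did not overlap between groups, 6 of them higher and 4 lower in OC2-OE, each with an exact permutation p of 0.1 (0.14 after adjustment over the 14). Among all genes tested, the groups did not overlap for 73.2%, so this count is not read as particular to chrM. The MT-ND4L to MT-ND3 ratio was 1.02, 1.07 and 1.07 in control and 1.66, 1.71 and 1.73 in OC2-OE. These genes are parted by the tRNA gene MT-TR only. In the other direction, MT-CO3 to MT-ATP6 went from 1.17 ± 0.0321 to 0.844 ± 0.00601, and MT-ND2 to MT-ND1 from 0.781 ± 0.00408 to 0.577 ± 0.00170 (SD, n = 3). MT-CO1 to MT-ND2 was also lower without overlap, at 2.49 ± 0.0285 in control and 1.86 ± 0.0220 in OC2-OE. So was MT-ND6 to MT-ND5, genes on opposite strands, at 0.0564 ± 0.00815 in control and 0.0312 ± 0.00150 in OC2-OE (SD, n = 3).

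The other 4 ratios overlapped between groups. They were MT-RNR2 to MT-RNR1 (exact permutation p = 0.2), MT-ATP8 to MT-CO2 (exact permutation p = 0.3) and the ratios within both pairs of genes that share 1 mRNA. MT-ND4 to MT-ND4L was 1.38, 1.33 and 1.29 in control and 1.37, 1.35 and 1.33 in OC2-OE (exact permutation p = 0.7). MT-ATP6 to MT-ATP8 was 1.16, 1.07 and 1.13 against 1.08, 0.994 and 1.16 (exact permutation p = 0.6). With 3 libraries per group, a difference smaller than this spread was not detectable. MT-ATP6 and MT-CO3 overlap by 1 base, yet their ratio was among the most changed.

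**Figure D4:**
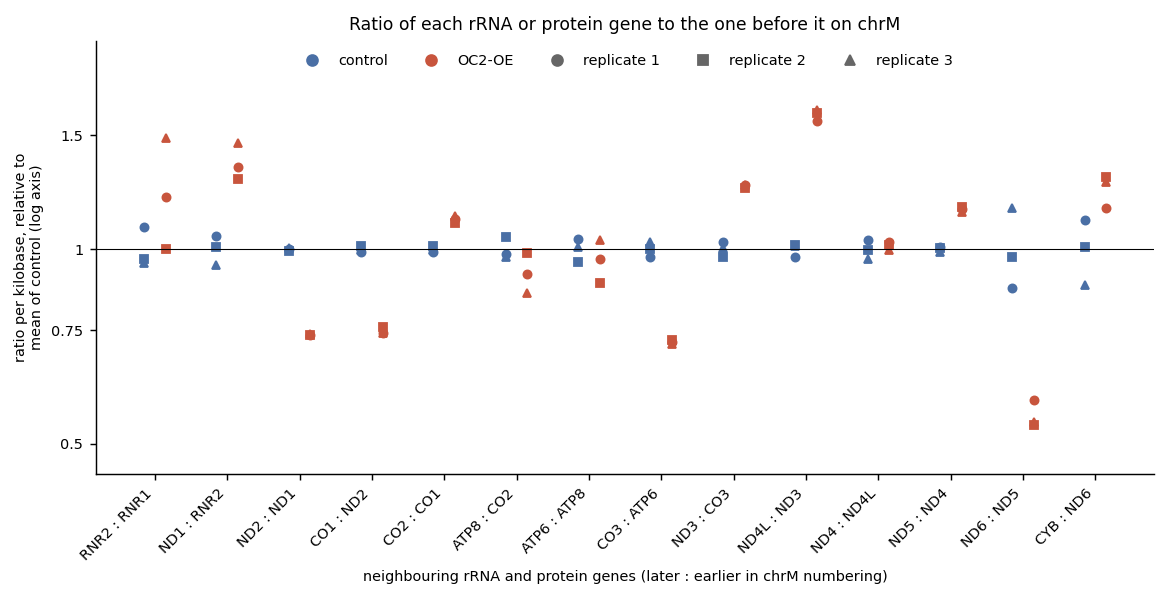
Ratio of each rRNA or protein gene to the one before it in chrM numbering, per kilobase, divided by the mean of the control libraries (log axis), for each library. MT-ND4 to MT-ND4L and MT-ATP6 to MT-ATP8 stay near 1 in both groups, while MT-ND4L to MT-ND3 is higher and MT-ND2 to MT-ND1, MT-CO1 to MT-ND2, MT-CO3 to MT-ATP6 and MT-ND6 to MT-ND5 are lower in all 3 OC2-OE libraries.

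The strands were compared next. Of 28 genes on the plus strand, 22 were tested, of which 12 rose and 2 fell (63.6% called, against 56.5% of all genes). The 9 minus-strand genes are MT-ND6 and 8 tRNA genes, of which MT-ND6 and MT-TE were tested and neither passed. Minus-strand genes held 0.107%, 0.113% and 0.134% of the chrM counts in control and 0.0952%, 0.0900% and 0.0930% in OC2-OE. MT-ND6 relative to the 12 protein genes of the plus strand went from 0.108%, 0.119% and 0.139% to 0.0990%, 0.0908% and 0.0910%. Both measures were lower in each OC2-OE library than in any control library (exact permutation p = 0.1, adjusted 0.14). The MT-ND6 counts themselves overlapped, with 456, 437 and 460 in control and 471, 390 and 420 in OC2-OE, and the poly(A) selection of these libraries limits what they show of a transcript without a poly(A) tail.

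The rRNA genes encode the 12S and 16S rRNAs of the mitochondrial ribosome. MT-RNR2 was at 2389.8, 2392 and 2396 CPM in control and at 3109, 3210.2 and 2887 CPM in OC2-OE. The control libraries lay close together, and each OC2-OE library was higher. MT-RNR2 rose from 2393 ± 3.32 CPM to 3069 ± 166 CPM (mean ± SD, n = 3), and its log2 fold change was 0.36 (SE 0.0320, adjusted p = 1.53e-06). Its call was lost when a control library was left out, where the adjusted p was between 0.00416 and 0.00969 with a log2 fold change of 0.36 in each. MT-RNR1 was at 286, 320.2 and 325 CPM in control and at 334, 415 and 251 CPM in OC2-OE. OC2-OE replicates 2 and 3 lay above and below all control libraries, and the log2 fold change of 0.10 did not pass (adjusted p = 0.690). Without OC2-OE replicate 2 it was -0.08, with the sign turned. The part of chrM counts from rRNA overlapped between groups, at 11.1% ± 0.576 and 11.9% ± 0.880 (SD, n = 3, exact permutation p = 0.2). MT-RNR1 and MT-RNR2 are abundant in cells, and their level here is that left after poly(A) selection.

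The tRNA genes gave few counts, between 0 and 1022 in a library. Free tRNAs are short and carry no poly(A) tail, and poly(A)-selected libraries hold little of them. Together they made up 0.189%, 0.187% and 0.193% of the chrM counts in control and 0.309%, 0.297% and 0.321% in OC2-OE, without overlap (exact permutation p = 0.1, adjusted 0.14). Of the 9 tested, 4 rose and none fell by edgeR (44.4% called, against 56.5% of all genes), and none was lower by DESeq2, by limma voom or at an unadjusted p under 0.05. Only 1 of the 9, MT-TE, lies on the minus strand. A tRNA gene could enter the test through its counts in 1 group alone, so this count describes the tested genes only.

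MT-TL1, the leucine tRNA with the anticodon TAA, held most of them. It had 587, 476 and 431 counts in control and 1022, 889 and 972 in OC2-OE, with no overlap. The mean rose from 28.8 ± 2.47 CPM to 52.7 ± 1.18 CPM (mean ± SD, n = 3), which gave a log2 fold change of 0.87 (SE 0.0549) with an adjusted p of 9.41e-30. It followed MT-ND1, the gene 2 bases downstream, with 19.5 ± 0.757 and 20.5 ± 0.283 counts per 1000 counts of MT-ND1 (SD, n = 3), ranges that overlapped (exact permutation p = 0.2). Per 1000 counts of MT-RNR2 upstream, it went from 12.0 ± 1.05 to 17.2 ± 1.25.

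MT-TI and MT-TM, on either side of the gap of 70 bases, had larger fold changes than the genes beside them. MT-TI had 84, 94 and 79 counts in control and 274, 202 and 284 in OC2-OE. From 4.99 ± 0.572 CPM, the level of MT-TI rose to 13.8 ± 2.0 CPM (mean ± SD, n = 3), a difference of 1.48 on the log2 scale (SE 0.114, adjusted p = 4.32e-23). MT-TM had 58, 63 and 72 counts in control and 161, 158 and 169 in OC2-OE. Both were clear of the controls in every library. MT-TM rose from 3.77 ± 0.662 CPM to 8.93 ± 0.466 CPM (mean ± SD, n = 3), and its log2 fold change was 1.25 (SE 0.134, adjusted p = 3.02e-15). Per 1000 counts of MT-ND1, MT-TI went from 3.39 ± 0.440 to 5.39 ± 0.722, and MT-TM from 2.57 ± 0.579 to 3.48 ± 0.179 (SD, n = 3). Per 1000 counts of MT-ND2, they went from 3.98 ± 0.531 to 8.56 ± 1.13 and from 3.02 ± 0.675 to 5.53 ± 0.277. None of these 4 ratios overlapped between groups, each with an exact permutation p of 0.1, or 0.114 after adjustment over 8 such ratios. The 8 were chosen after values had been seen, and only for the 4 tRNA genes called higher in these same libraries, MT-TK included. That choice favours higher ratios, so these p-values are given as a description only.

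MT-TK, the lysine tRNA between MT-CO2 and MT-ATP8, had 0, 8 and 3 counts in control and 17, 11 and 19 in OC2-OE. It entered the test through its OC2-OE counts, so its call (log2 fold change 1.97, adjusted p = 2.10e-04) is given as a description only. Leaving out 1 library moved the log2 fold change between 1.34 and 3.22, and the call was lost without control replicate 1 or 3 or OC2-OE replicate 1 or 3, with adjusted p-values up to 0.0117.

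Another 5 tRNA genes were tested without passing. MT-TV had 24, 23 and 20 counts in control and 35, 31 and 37 in OC2-OE, and MT-TT had 40, 35 and 36 against 54, 56 and 52. Neither pair of groups overlapped, but the log2 fold changes of 0.54 and 0.46 had adjusted p-values of 0.0536 and 0.0345. MT-TF, MT-TW and MT-TE overlapped between groups, with summed counts of 29, 68 and 37 in control and 41, 108 and 62 in OC2-OE. They carry phenylalanine, tryptophan and glutamate.

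The remaining 13 tRNA genes had between 1 and 59 counts over all 6 libraries and were not tested. They are MT-TA, MT-TC, MT-TD, MT-TG, MT-TH, MT-TL2, MT-TN, MT-TP, MT-TQ, MT-TR, MT-TS1, MT-TS2 and MT-TY. MT-TQ, on the minus strand, overlaps the end of MT-TI and had 29 counts in control against 15 in OC2-OE. MT-TG, between MT-CO3 and MT-ND3, had 0 counts in control, where up to 3 would be allowed, and 6 in OC2-OE. Differences in these 13 genes were not tested.

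**Figure D5:**
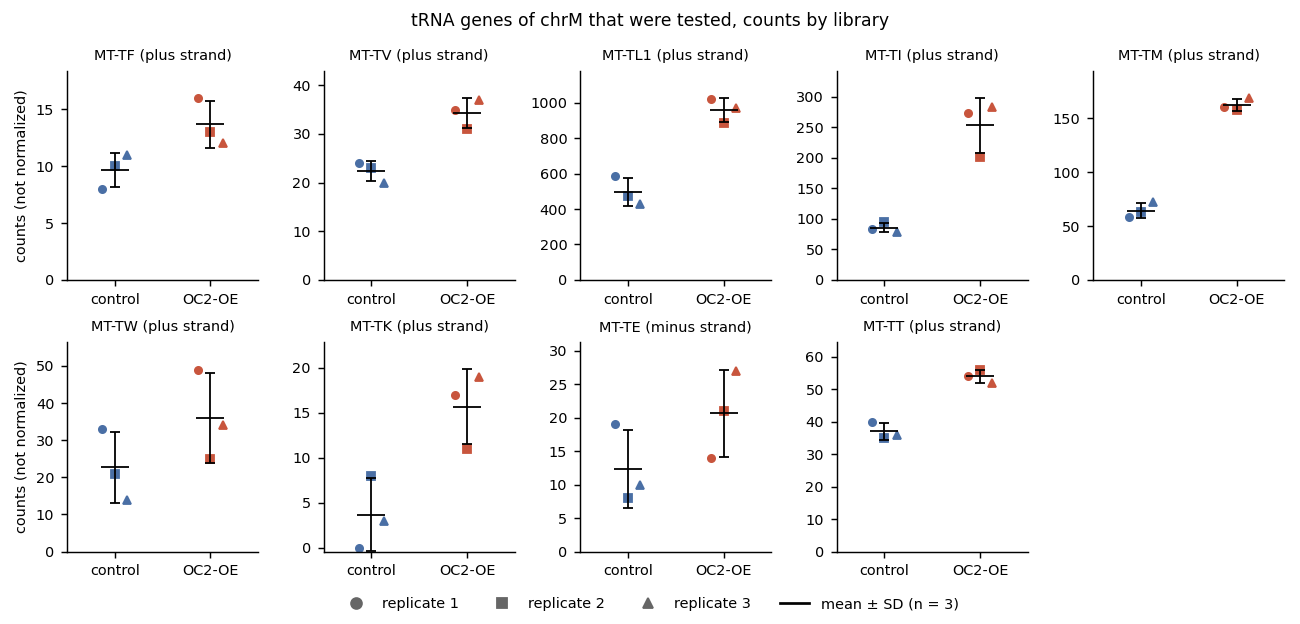
Counts (not normalized) of the 9 tRNA genes of chrM that were tested, by library, with replicates by symbol and the mean and SD (n = 3) in black. MT-TL1, MT-TI, MT-TM and MT-TK are higher in all 3 OC2-OE libraries, MT-TV and MT-TT are apart by less, and MT-TF, MT-TW and MT-TE overlap.

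Nuclear chromosomes hold copies of mitochondrial DNA whose reads can resemble those of chrM. A search of the GENCODE 29 transcripts found that 27.9% of the windows of 100 bases of MT-CO1 and 26.1% of those of MT-ND2 occur exactly in the transcript of a nuclear copy. The share was 11.9% for MT-ATP6, 10.97% for MT-ND1, 4.38% for MT-CO3 and 2.39% for MT-CO2, and no such window was found for the other protein and rRNA genes. The tRNA genes, of 59 to 75 bases, are shorter than a window. Each was searched only as a whole, without an exact match. Nuclear sequence outside annotated transcripts was not searched, so copies of tRNA genes there would have been missed. Reads that lie wholly in these windows match more than 1 place, so counts of the 6 genes are uncertain to that extent. For the tRNA genes this uncertainty was not measured. Most of the copies concerned lie in 1 stretch of chromosome 1. MTND2P28 (chr1:629640-630683) had 39.0 ± 2.01 CPM in control and 53.4 ± 1.77 CPM in OC2-OE (SD, n = 3), and a log2 fold change of 0.45 (SE 0.0508, adjusted p = 4.19e-14), beside 0.36 for MT-ND2. MTATP6P1 (chr1:633696-634376), with 130.4 ± 5.49 CPM in control and 124 ± 4.03 CPM in OC2-OE (SD, n = 3), and MTCO1P12 (chr1:631074-632616), with 7.95 ± 1.64 CPM in control and 7.72 ± 0.142 CPM in OC2-OE (SD, n = 3), did not pass. MTND4P12 had 35 counts in control and 33 in OC2-OE and MTCO1P40 6, 2 and 2 in the control libraries against 2, 2 and 22 in the OC2-OE libraries. Of 404 copies by symbol, 54 had counts and 4 were tested.

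The nuclear genes that transcribe mitochondrial DNA did not move as a block. Of 11, 3 rose and 5 fell (72.7% called, against 56.5% of all genes), with a median log2 fold change of -0.09. POLRMT, the polymerase itself, had 104 ± 5.98 CPM in control and 117 ± 2.11 CPM in OC2-OE (SD, n = 3), a log2 fold change of 0.17 (SE 0.0357, adjusted p = 1.35e-05), a call lost without control replicate 1 (0.00114). TFAM, which packages mitochondrial DNA and starts transcription, fell from 104 ± 2.45 to 84.9 ± 1.49 CPM (SD, n = 3), and its log2 fold change was -0.30 (adjusted p = 3.19e-12). TFB2M, which opens the promoter, had a log2 fold change of -0.21 (adjusted p = 6.99e-04). Its groups overlapped, and its call was lost in 9 of 15 alternatives, among them library size only, DESeq2 and limma voom, with adjusted p-values up to 0.01996. The elongation factor TEFM had 8.37 ± 1.75 CPM in control and 9.15 ± 0.430 CPM in OC2-OE (SD, n = 3) and did not pass (adjusted p = 0.346). In the mTERF family, named for transcription termination, MTERF2 and MTERF4 fell (log2 fold changes of -0.75 and -0.49) and MTERF3 rose (0.57). TOP1MT, the mitochondrial topoisomerase, rose by 0.46 on the log2 scale, and MRPL12, a ribosomal protein that also binds POLRMT, fell (log2 fold change -0.42).

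Genes of mitochondrial DNA replication were mixed too. Of 10, 2 rose and 4 fell (a share of 60% called, near that of all genes), with a median log2 fold change of -0.17. POLG, the catalytic subunit of the replicase, had 43.1 ± 1.54 CPM in control and 55.1 ± 0.785 CPM in OC2-OE (SD, n = 3), a log2 fold change of 0.36 (SE 0.0489, adjusted p = 1.41e-10), and its partner POLG2 rose by 0.49 on the log2 scale. The helicase TWNK had 45.4 ± 0.890 CPM in control and 42.6 ± 1.52 CPM in OC2-OE (SD, n = 3) and did not pass (adjusted p = 0.103). The nucleases DNA2 and MGME1 and the topoisomerase TOP3A fell, with log2 fold changes of -0.96, -0.79 and -0.31, and DNA2 and TOP3A also act in the nucleus. The number of mitochondrial genomes per cell was not measured.

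Of 20 tested genes for cutting and modifying mitochondrial RNA, 3 rose and 8 fell (55.0% called, against 56.5% of all genes). Their median log2 fold change was -0.02. The largest change was in CDK5RAP1, which modifies mitochondrial tRNAs, with 145 ± 6.43 CPM in control and 82.2 ± 0.832 CPM in OC2-OE (SD, n = 3), a log2 fold change of -0.82 (SE 0.0354, adjusted p = 5.09e-44). TRMU, which thiolates tRNAs for lysine, glutamine and glutamate, fell by 0.62 on the log2 scale, and MRM3, a methyltransferase of the 16S rRNA, fell by 0.53. QTRT1, an enzyme of queuosine in cytosolic and mitochondrial tRNAs, rose by 0.71 on that scale. HSD17B10, a subunit of mitochondrial RNase P, fell (log2 fold change -0.32). The other factors that free the tRNAs were named after their values had been seen. TRMT10C and ELAC2 fell (log2 fold changes of -0.30 and -0.26), and PRORP, the nuclease subunit of RNase P, was at 6.20 ± 0.123 CPM in control and 6.88 ± 0.762 CPM in OC2-OE (SD, n = 3) and did not pass (adjusted p = 0.268).

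Of 14 genes of mitochondrial mRNA stability, polyadenylation and decay, 2 rose and 4 fell (42.9% called, against 56.5% of all genes). Their median log2 fold change was -0.13. LRPPRC, the main stabilizer, had 337 ± 9.72 CPM in control and 365 ± 9.15 CPM in OC2-OE (SD, n = 3), a log2 fold change of 0.11 (SE 0.0243, adjusted p = 1.84e-05). This call was lost without control replicate 2 (0.00169), which left 1 gene of the list that rose. SLIRP had 42.9 ± 1.53 CPM in control and 38.8 ± 0.558 CPM in OC2-OE (SD, n = 3) and did not pass (adjusted p = 0.0118). FASTKD5, which acts on mRNAs that lack a tRNA at an end, fell by 0.37 on the log2 scale, and FASTK, which in mitochondria is tied to MT-ND6 mRNA, rose by 0.28. FASTKD1, the exoribonuclease PNPT1 and TBRG4 fell, with log2 fold changes of -0.24, -0.19 and -0.15. The PNPT1 call was lost without OC2-OE replicate 3 (adjusted p = 0.00106) and the TBRG4 call in 7 of 15 alternatives (up to 0.0172). At an adjusted p under 0.05, 9 genes of the list were lower, and the share of all genes lower at that threshold was not counted. Over all 7 lists of nuclear genes, 15 of 98 tested genes rose and 39 fell (55.1% called), with a median of -0.13. Of all genes, 56.5% were called, 27.8% higher and 28.7% lower. The 7 lists include those for translation and for regulators of mitochondrial content.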

How the data were processed

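RNA-Seq libraries of DMS53 cells were compared, 3 control against 3 OC2-OE. The authors aligned reads to GRCh38 with STAR 2.7.9a and counted read pairs by strand over the exons of GENCODE 42 genes with featureCounts 1.6.0, and the deposited values are these raw counts, with no normalization. The headers list no option for reads matching several places or genes; by that program's defaults such reads are left out, which would lower values of overlapping genes and of genes with nuclear copies.

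The members and gene lists were chosen with earlier results of these data known. Genes of chrM were taken from the tables' chromosome column. Counts were normalized by TMM and 17307 genes kept by filterByExpr were tested with edgeR 4.0.16 (R 4.3.3) by its quasi-likelihood test with robust dispersions and Benjamini-Hochberg adjustment over all of them, at the study's threshold of 0.001. The SE was derived from the log2 fold change and the F statistic. The edgeR fit was tested on simulated counts with the same dispersion for every gene, and the other steps were not. Shares and ratios were compared by exact permutation tests. Genes named are all tested chrM genes and, on each nuclear list, the 5 with the largest absolute change under the threshold, with POLRMT, TFAM, TFB2M, TEFM, POLG, TWNK, LRPPRC and SLIRP in any case, and the 5 nuclear copies with the most counts. A gene that this rule names is not reported here. Alternatives were DESeq2 1.42.0 (size factors, Wald test), library size only, upper-quartile normalization, nuclear genes only for normalization, limma 3.58.1 voom, all genes with a count, a minimum of 10 counts in each library, the replicate block, each library left out, an adjusted p under 0.05 and a minimum absolute log2 fold change of 1. Libraries held 16533284 to 19099337 counts, so that long chrM genes rest on many counts and most tRNA genes on few.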

Additional observations from a re-analysis of the deposited data

How the results depend on the processing

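None of the 14 chrM genes called changed direction under the alternatives run, and 9 of them kept their call under each other scaling, tool, filter, block and left-out library. The number of chrM genes lower in OC2-OE went from 2 to 4 with limma voom and with an adjusted p under 0.05, and the same change was seen for the protein genes. With voom the genes added were MT-CO1 and MT-ATP6. By the Wald test of DESeq2 neither MT-CO2 nor MT-TK was called, and MT-CO2 was also not called with a minimum of 10 counts in each library. With a minimum absolute log2 fold change of 1, the chrM genes called were 3 higher and 0 lower, the protein genes 0 and 0, and the genes on the nuclear lists 0 and 1. Leaving out 1 library gave 9 to 12 chrM genes higher and 2 to 4 lower, and 5 to 7 protein genes higher and 2 to 4 lower, the 4 lower being reached without control replicate 3. Per kilobase, the difference in share (OC2-OE minus control) was 8.68 percentage points for complex I, -0.0155 for complex III, -6.33 for complex IV and -2.34 for complex V, the cause being the weighting by length. Without rRNA genes, the difference in the chrM share was 0.424 percentage points. The log2 fold change of MT-ATP8 changed sign to 0.0249 with library size only and 0.0171 with upper-quartile normalization, 2 scalings that moved the median of all genes from 0.0071 to 0.0576 and 0.0498 and so raise each gene alike. Leaving out 1 library gave -0.0846 to 0.0246 for it and -0.0787 to 0.278 for MT-RNR1, and the cause of these was not tested.

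With the replicate number as a block, 4 protein genes were higher in OC2-OE and 2 lower, with MT-CO2, MT-ND4 and MT-ND5 no longer called, and of all chrM genes 9 were higher and 2 lower. Whether the numbers pair the libraries was not settled. Deviations of same-numbered libraries from their group means correlated by only 0.000975, 0.016 and 0.0126. Those of differently numbered libraries correlated by -0.0145 to 0.00202. Depth limits the tRNA genes, of which the 13 not tested had 1 to 59 counts in all.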

Other observations

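Genes for the translation of the mitochondrial messages were also listed. Of 21 tested mitochondrial aminoacyl-tRNA synthetases and related enzymes, 4 rose (2 by DESeq2) and 8 fell (57.1% called, against 56.5% of all genes). Their median log2 fold change was -0.16. MARS2, TARS2 and NARS2, for methionine, threonine and asparagine, fell (log2 fold changes of -0.56, -0.38 and -0.32), and CARS2, for cysteine, rose by 0.47 on the log2 scale. Of 13 translation factors, 1 rose and 5 fell (46.2% called, against 56.5% of all genes), with a median of -0.10. MTFMT, which formylates the initiator methionine, rose by 0.76 (adjusted p = 1.99e-10), while the elongation factors TSFM and TUFM, the release factor MTRFR and the initiation factor MTIF3 fell, with log2 fold changes of -0.62, -0.27, -0.42 and -0.22. Of these factors 3 rather than 5 were lower without control replicate 2, with library size only, with upper-quartile normalization and by DESeq2, and the MTIF3 call was lost in 5 of 15 alternatives (adjusted p up to 0.0145).

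Of 9 nuclear regulators of mitochondrial content, none rose and 5 fell (55.6% called, against 56.5% of all genes), with a median of -0.30. DESeq2 and limma voom also called none higher, but 1, PPRC1 (adjusted p = 0.00286 by edgeR), was higher at an adjusted or unadjusted p under 0.05, and 1 was called with library size only and with upper-quartile normalization. ESRRG, an orphan nuclear receptor, had 43.6 ± 1.55 CPM in control and 21.7 ± 0.958 CPM in OC2-OE (SD, n = 3), a log2 fold change of -1.01 (SE 0.0598, adjusted p = 5.31e-32). PPARGC1A, the coactivator known as PGC-1α, had 126 ± 4.23 CPM in control and 86.0 ± 1.07 CPM in OC2-OE (SD, n = 3), a log2 fold change of -0.55 (SE 0.0357, adjusted p = 7.47e-29), and PPARGC1B fell as well (log2 fold change -0.55). GABPB1 and NRF1, which act at promoters of many nuclear genes for mitochondrial proteins, fell too (log2 fold changes of -0.49 and -0.30). The NRF1 call was lost without OC2-OE replicate 1 or 3 (adjusted p up to 0.00158). The chrM share of counts was higher in the same OC2-OE libraries, and no test of a link between these was made.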
